A study of Mus musculus with 39 samples.

Results

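The 10 genes described here encode inflammatory cytokines, an induced matrix protein and the enzymes of prostaglandin synthesis, in mouse mesothelioma tumours treated with tretinoin, immune checkpoint therapy (ICT) or both. They are Tnf, Il1a, Il1b, Il1rn, Il6, Il33, Tnfaip6, Ptgs1, Ptgs2 and Ptges, and were taken by gene symbol from the 39676 genes of the deposited count table. All 10 were found once each, and all 10 passed the low-count filter of every comparison. The tumours were grown under the skin of BALB/c mice from AB1-HA, an established line of mouse mesothelioma cells into which the haemagglutinin of influenza was introduced, and RNA was sequenced from 39 of them. PBS tumours (n = 10) came from mice given PBS, which in the study's methods held DMSO, the solvent of tretinoin, where it stood in for that drug. Tretinoin tumours (n = 9) came from mice given tretinoin, which is all-trans retinoic acid. The labels give 5 mg/kg for 5 daily doses from day 4. ICT tumours (n = 10) came from mice given 100 µg each of antibody to CTLA-4 and to PD-L1, starting on day 7, and tretinoin+ICT tumours (n = 10) from mice given both treatments at those doses. In every group 1 tumour of a pair carried by the same mouse was removed on day 9. For tretinoin+ICT the labels also give the response of the mouse, with 6 tumours from responders and 4 from non-responders. Such a tumour is a mixture of 1 cloned cancer line with host stroma and leukocytes, and all mice share the tumour line and the host strain, so neither host genetics nor a second mesothelioma is sampled.

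TNF, IL-1 alpha, IL-1 beta and IL-6 are secreted or membrane-bound signals that start and spread inflammation, mostly through NF-kB and, for IL-6, through STAT3. IL-1 alpha and IL-1 beta act on the same receptor, which the IL-1 receptor antagonist encoded by Il1rn occupies without signalling, while IL-33 is an alarmin of the same family that is stored in nuclei and acts on the ST2 receptor. Cyclooxygenases turn arachidonic acid into prostaglandin H, from which the synthase encoded by Ptges makes prostaglandin E. Ptgs1 encodes the constitutive cyclooxygenase and Ptgs2 the one induced by inflammatory signals, the target of many anti-inflammatory drugs. Tnfaip6 encodes TSG-6, a secreted protein induced by TNF and IL-1 that cross-links hyaluronan.

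Library totals lay between 14033046 and 37951183 counts (median 18548168). Macrophage genes were abundant in every tumour, with Csf1r between 499.97 and 1133 CPM, the count scaled to the size of the library, whereas the mesothelial genes Upk3b and Lrrn4 had 0 counts in 36 and 15 of the 39 tumours. Of the 8 mesothelial markers 5 were found, and of those only Pdpn was above 10 CPM. PBS replicate 4 and Tretinoin replicate 3 each stood well above the rest of their group in 4 of the 10 genes, and ICT replicate 3 in Il1a. The summed CPM of the 7 macrophage markers found was also the highest of its group in each of these 3 tumours (3070, 4471 and 4655). The first digit of the tumour names was never shared by 2 treatments, so that a difference between those series of tumours and one between treatments cannot be told apart. In bulk tumours, fewer cells of a type and less RNA per cell cannot be told apart either.

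Per kilobase of exon the 10 genes covered a wide range of levels. Over the 39 tumours the median level was highest for Il33 (16.4 CPM per kilobase), Il1b (15.2) and Ptges (13.2). Tnf (7.37), Ptgs1 (7.16), Il1rn (6.70), Ptgs2 (6.09) and Tnfaip6 (4.92) were intermediate, and Il1a (1.05) and Il6 (0.704) were lowest. The 2 low genes rest on few reads, with as few as 4 counts for Il1a in 1 ICT tumour and 3 counts for Il6 in 1 tretinoin tumour. In PBS tumours the constitutive and the inducible cyclooxygenase were of similar order, at a median of 4.34 CPM per kilobase for Ptgs1 and 6.38 for Ptgs2.

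On GRCm38, with the GENCODE M21 annotation, 6 of the 10 genes lie on chromosome 2. These are Il1rn (chr2:24336853-24351494, plus strand), Ptges (chr2:30889471-30929863, minus), Ptgs1 (chr2:36230426-36252272, plus), Tnfaip6 (chr2:52038009-52056686, plus), Il1a (chr2:129299610-129309972, minus) and Il1b (chr2:129364570-129371139, minus). Ptgs2 lies at chr1:150100031-150108227 (plus), Il6 at chr5:30013114-30019981 (plus), Tnf at chr17:35199381-35202007 (minus) and Il33 at chr19:29925114-29960718 (plus). Exons of 3 genes overlap an exon on the opposite strand. Il1a shares 222 bases with Gm14023, Ptgs1 shares 148 with Gm43621 and Il1b shares 25 with Il1bos. The strand mode of the counting is not given in the sources used here, so reads from those stretches cannot be assigned to one strand.

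The promoters of the 5 genes on which the comparisons turn are shown because their responses were among the larger or opposed ones of the 10. Each line gives the bases before the transcription start of RefSeq on GRCm38.p6, 5′ to 3′ on the strand of the gene. Capitals mark matches, on either strand, to 7 motifs searched in the 250 bases before each start. The motifs were TATAAA (the TATA box), TGANTCA (AP-1), AGGTCA (the repeated unit of a retinoid receptor site), CCAAT, TTCNNNGAA (GAS, bound by STAT factors), TTGCGNAA (C/EBP) and NF-kB.
Il1a (chr2:129309973-129310222, minus strand): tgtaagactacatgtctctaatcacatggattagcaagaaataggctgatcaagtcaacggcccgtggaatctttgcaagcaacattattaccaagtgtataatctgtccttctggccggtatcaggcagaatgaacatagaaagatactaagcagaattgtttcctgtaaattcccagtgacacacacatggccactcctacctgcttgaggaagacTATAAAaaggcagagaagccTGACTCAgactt
Il6 (chr5:30012864-30013113, plus strand): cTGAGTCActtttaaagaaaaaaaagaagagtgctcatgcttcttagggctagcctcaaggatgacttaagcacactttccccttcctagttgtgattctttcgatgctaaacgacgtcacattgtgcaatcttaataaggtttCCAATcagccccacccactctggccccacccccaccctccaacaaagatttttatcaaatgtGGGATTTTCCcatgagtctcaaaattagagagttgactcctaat
Tnfaip6 (chr2:52037863-52038008, plus strand): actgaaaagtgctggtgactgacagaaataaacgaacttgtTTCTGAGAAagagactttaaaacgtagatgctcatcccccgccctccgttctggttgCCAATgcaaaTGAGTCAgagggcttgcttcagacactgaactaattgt
Ptgs1 (chr2:36230176-36230425, plus strand): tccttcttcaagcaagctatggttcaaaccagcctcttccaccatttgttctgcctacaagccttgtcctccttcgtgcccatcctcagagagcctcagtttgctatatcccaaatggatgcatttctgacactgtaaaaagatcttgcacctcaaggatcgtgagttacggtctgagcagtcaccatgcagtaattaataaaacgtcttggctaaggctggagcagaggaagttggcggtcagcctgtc
Ptgs2 (chr1:150099781-150100030, plus strand): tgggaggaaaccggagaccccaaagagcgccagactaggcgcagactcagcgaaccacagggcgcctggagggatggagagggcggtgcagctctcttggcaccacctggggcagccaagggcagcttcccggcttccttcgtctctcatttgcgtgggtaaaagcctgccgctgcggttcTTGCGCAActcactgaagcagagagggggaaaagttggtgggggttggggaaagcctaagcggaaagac
For Tnfaip6 the last 104 of the 250 bases lie in the first exon of the GENCODE model and are not printed. Of the Ptgs2 bases, 183 also lie in an exon of the noncoding gene Ptgs2os.

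The Il1a promoter held a TATA box starting 32 bases before the start and an AP-1 match starting 12 bases before it. The Il6 promoter held an AP-1, a CCAAT and an NF-kB match, starting 249, 106 and 44 bases before the start. Tnfaip6 had 5 matches, a GAS match at 209 bases, CCAAT at 152 and AP-1 at 142 and, within the unprinted exon stretch, CCAAT at 81 and AGGTCA at 65. Ptgs2 had 1 match, to C/EBP at 69 bases, and Ptgs1 had none of the 7. Among all 32851 RefSeq promoter windows of that length, 12.4% held TATAAA, 6.75% TGANTCA, 14.02% AGGTCA, 33.8% CCAAT, 7.02% TTCNNNGAA, 0.670% TTGCGNAA and 5.00% the NF-kB motif. No 2 matches in the members' windows shared a base. A match describes letters in this window and is not evidence of binding.

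The comparisons asked how each treatment alone changed these genes, how the combination differed from each single treatment, and whether responders differed from non-responders. A gene passed at a Benjamini-Hochberg adjusted p below 0.05 in edgeR's quasi-likelihood test, adjusted over all genes tested, and values are log2 fold changes ± their standard error. The combination moved the largest number of the 10 genes, as it did of all genes. Against PBS, 2929 of 14340 genes tested passed with tretinoin, 3007 of 14155 with ICT and 7174 of 14265 with both. Tretinoin alone moved 5 of 10 in both directions, ICT alone raised 5 of 10, and tretinoin+ICT raised 9 of 10 over PBS.

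With tretinoin alone Il1a, Ptgs1 and Ptges rose and Tnfaip6 and Ptgs2 fell, against a background of 11.5% of all 14340 genes tested that were higher and 8.95% that were lower. Of these, Il1a and Ptgs1 changed at least 2-fold, as 1.62% of all genes did. ICT alone raised Il1a, Il1rn, Il6, Il33 and Tnfaip6 and lowered none of the 10, with 14.1% of 14155 genes higher and 7.15% lower. Il1a and Il1rn were past 2-fold, as were 2.35% of all genes. Against PBS, tretinoin+ICT raised every one of the 10 but Ptgs2, where 25.7% of 14265 genes were higher and 24.5% lower. In that comparison 6 of the 10 were past 2-fold, against 5.92% of all genes, and 7174 of all genes tested passed in either direction. The median log2 fold change of the 10 genes was 0.21 with tretinoin, 0.56 with ICT and 1.04 with both, where the medians of all genes tested were 0.01, -0.02 and -0.01. These 3 comparisons share the PBS tumours. Overlap between treatments is given below for single genes, and how many of all genes did not overlap was not counted. Each of the called differences between treatments kept its direction in all 4 pairs of name series.

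**Figure D1:**
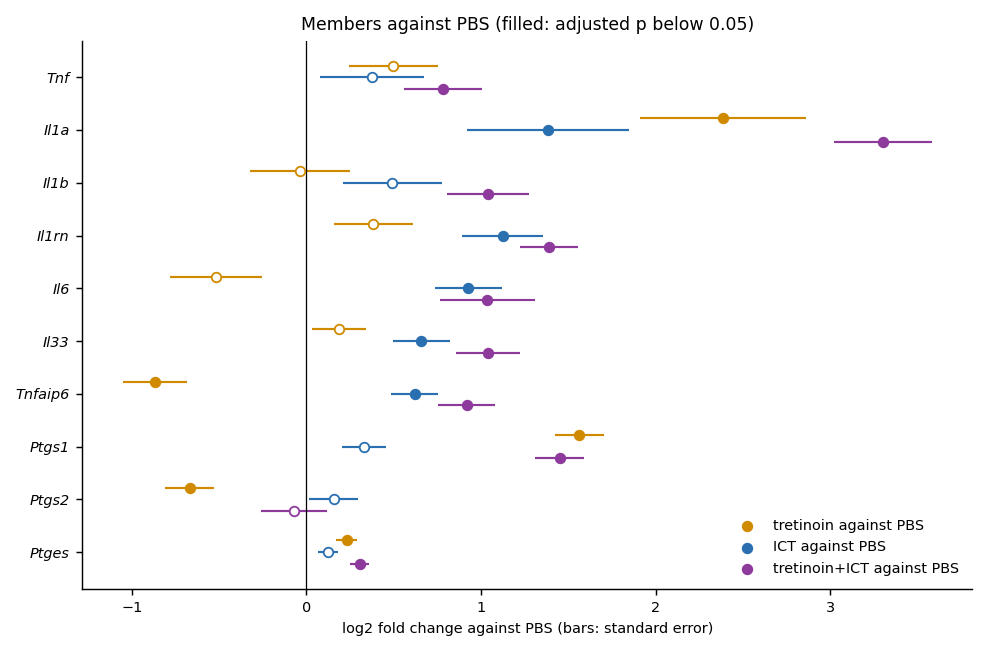
Log2 fold changes against PBS (x axis) of the 10 genes (rows) for tretinoin, ICT and tretinoin+ICT, with the standard error as bars and filled points where the adjusted p was below 0.05. Tnfaip6 and Ptgs2 lie left of 0 with tretinoin alone, and Il1a lies farthest right with the combination (3.30).

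Adding tretinoin to ICT raised Il1a and Ptgs1 and left the other 8 without a call, where 1.57% of 14202 genes were higher, 0.422% lower and 0.394% past 2-fold. Both genes were past 2-fold. The number of all genes that passed here, 283, became 883 without ICT replicate 3, while the same number of the 10, 2, passed. Adding ICT to tretinoin raised Il1b, Il1rn, Il6, Il33, Tnfaip6 and Ptgs2, with 12.3% of 14393 genes higher and 9.01% lower. Of these, 4 were past 2-fold, as were 2.08% of all genes. Between the single treatments, Il6, Tnfaip6 and Ptgs2 were higher and Ptgs1 lower in ICT than in tretinoin tumours, with 4.13% of 14314 genes higher and 5.41% lower. Of these, 3 were past 2-fold against 1.22% of all genes. None of the 10 passed between responders and non-responders, where 0% of 14604 genes passed in either direction or past 2-fold.

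**Figure D2:**
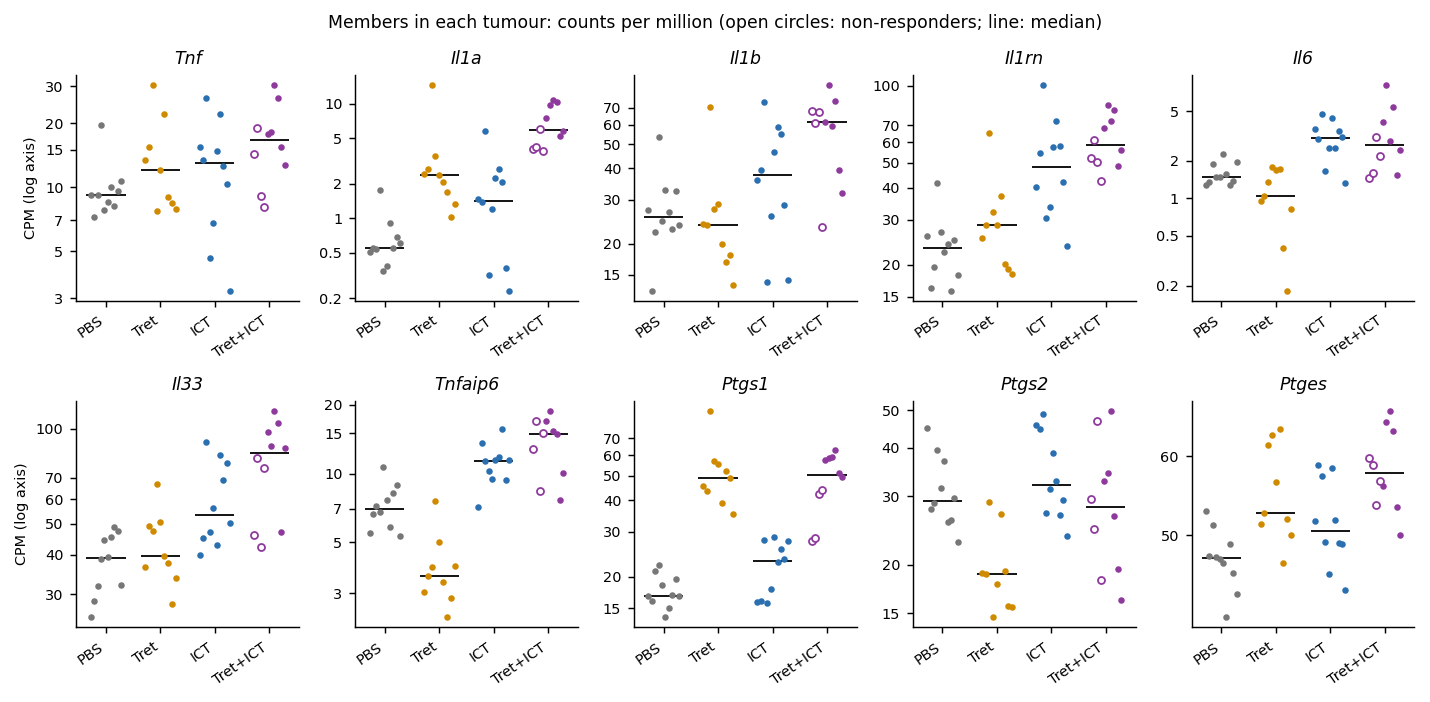
CPM on a log axis for each of the 10 genes (panels) in every tumour (points), by treatment, with the median as a line and non-responders of the combination as open circles. Ptgs1 separates both tretinoin groups from PBS without overlap, and Il1a and Il1rn separate the combination from PBS. How many of all genes separate these groups was not counted.

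Il1a, the gene of IL-1 alpha, showed the largest fold changes of the 10 against PBS. It ranged from 0.348 to 1.75 CPM in PBS tumours (median 0.550), from 1.03 to 14.6 with tretinoin (2.36), from 0.233 to 5.81 with ICT (1.43) and from 3.85 to 10.8 with both (5.85). All 10 combination tumours lay above all PBS tumours, and 6 of 9 tretinoin and 4 of 10 ICT tumours did so, while 2 ICT tumours lay below them all. The rise over PBS was 2.38 ± 0.48 with tretinoin (adjusted p = 0.00182), 1.38 ± 0.46 with ICT (0.0388) and 3.30 ± 0.28, which is 9.86-fold, with both (3.85e-08). The combination also exceeded ICT, by 1.91 ± 0.41 (adjusted p = 0.0142). Its difference from tretinoin, 0.92 ± 0.41, did not pass (adjusted p = 0.112). That last value turned on Tretinoin replicate 3, at 14.6 CPM, without which the difference was 1.63 and passed (adjusted p = 0.000388). The rise with ICT alone lost its call without any one of 12 of the 20 tumours, and stood at 0.97 (adjusted p = 0.103) without ICT replicate 3.

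Il1b, the gene of IL-1 beta, did not follow Il1a under tretinoin. It ranged from 12.9 to 53.7 CPM with PBS (median 25.6), from 13.7 to 70.7 with tretinoin (23.7), from 13.98 to 73.7 with ICT (37.6) and from 23.4 to 86.5 with both (61.4). Of the single treatments, 1 tretinoin and 3 ICT tumours lay above every PBS tumour, whereas 7 of 10 combination tumours lay above every PBS tumour. Il1b was higher in the combination than in PBS by 1.04 ± 0.23 (adjusted p = 0.00115) and than in tretinoin by 1.08 ± 0.29 (adjusted p = 0.0159). Within tretinoin tumours the name series 3 and 7 did not overlap for Il1a or Il1b, with mean log2 CPM lower in series 7 by -1.30 and -0.90. Neither tretinoin (-0.04 ± 0.28) nor ICT (0.49 ± 0.28) passed against PBS, at adjusted p of 0.943 and 0.218.

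Il1rn, which encodes the antagonist of both cytokines, rose with ICT whether or not tretinoin was given. It ranged from 15.9 to 41.7 CPM with PBS (median 23.3), from 18.4 to 65.3 with tretinoin (28.6), from 23.7 to 101 with ICT (48.3) and from 42.3 to 83.8 with both (58.7). No combination tumour overlapped the PBS tumours, and each ICT tumour exceeded the PBS median. The rise was 1.12 ± 0.23 with ICT (adjusted p = 0.00391), 1.39 ± 0.16 with both (2.34e-06) and 1.01 ± 0.21 when ICT was added to tretinoin (0.00410). The combination differed from ICT by 0.26 ± 0.21, which did not pass.

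The log2 ratio of Il1rn to Il1b reads in each tumour, from CPM with 0.5 added and not corrected for length, is given as a description without a test. Its median was -0.27 with PBS, where 8 of 10 tumours had fewer Il1rn than Il1b reads, 0.23 with tretinoin, 0.41 with ICT, where Il1rn reads exceeded Il1b reads in all 10, and 0.13 with both. Il1rn has the longer exons (5535 against 1907 bases), and per kilobase its median lay below that of Il1b in every treatment, at 4.22 against 13.4 CPM per kilobase with PBS and 8.72 against 19.7 with ICT. In the combination the ratio ran from -0.42 to 0.84, and non-responders held both ends of that range.

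Il6 rose with ICT and had the lowest median of the 10 over all tumours. It ranged from 1.28 to 2.28 CPM with PBS (median 1.49), from 0.182 to 1.78 with tretinoin (1.04), from 1.34 to 4.72 with ICT (3.07) and from 1.45 to 8.12 with both (2.66). In 8 of 10 ICT tumours and 6 of 10 combination tumours it was above every PBS tumour, whereas 5 of 9 tretinoin tumours lay below every PBS tumour. The rise over PBS was 0.93 ± 0.19 with ICT (adjusted p = 0.00381) and 1.04 ± 0.27 with both (0.00355), and over tretinoin it was 1.44 ± 0.30 with ICT (0.00396) and 1.56 ± 0.37 with both (0.00929). With tretinoin alone the difference from PBS was -0.52 ± 0.27 and did not pass (adjusted p = 0.168).

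Tnf, the gene of TNF, passed only in the comparison of the combination with PBS. It ranged from 7.26 to 19.6 CPM with PBS (median 9.25), from 7.78 to 30.3 with tretinoin (12.1), from 3.26 to 26.3 with ICT (13.03) and from 8.12 to 30.4 with both (16.7). The spread among ICT tumours covered the whole PBS range and beyond, with 2 tumours above and 3 below all PBS tumours. The rise with the combination was 0.78 ± 0.22 (adjusted p = 0.00624). It missed the threshold when all 39 tumours were fitted together (0.67, adjusted p = 0.0614). That fit took responders and non-responders as separate groups of equal weight, where the main fit pooled their tumours.

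Il33, whose receptor ST2 is encoded by Il1rl1, rose with ICT. It ranged from 25.3 to 49.0 CPM with PBS (median 38.99), from 27.8 to 66.7 with tretinoin (39.7), from 39.9 to 90.7 with ICT (53.3) and from 42.1 to 114 with both (84.1). Every ICT and combination tumour was above the PBS median, and 7 of 10 combination tumours were above all PBS tumours. The rise over PBS was 0.66 ± 0.16 with ICT (adjusted p = 0.00978) and 1.04 ± 0.18 with both (0.000132), and it was 0.85 ± 0.20 when ICT was added to tretinoin (0.00743). With tretinoin alone Il33 stood at 0.19 ± 0.15 and did not pass.

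Tnfaip6, the TSG-6 gene, fell with tretinoin and rose with ICT, and the tretinoin effect differed with and without ICT. It ranged from 5.33 to 10.6 CPM with PBS (median 6.97), from 2.35 to 7.59 with tretinoin (3.55), from 7.15 to 15.6 with ICT (11.4) and from 7.65 to 18.7 with both (14.9). Of 9 tretinoin tumours 8 lay below every PBS tumour, and all 10 combination tumours lay above all tretinoin tumours. The fall with tretinoin was -0.87 ± 0.18 (adjusted p = 0.00255) and the rise with ICT was 0.62 ± 0.13 (0.00456). Over tretinoin tumours it was higher by 1.48 ± 0.18 with ICT (adjusted p = 1.53e-05) and by 1.79 ± 0.21 with both (2.96e-05), and over PBS the combination was higher by 0.92 ± 0.16 (0.000104). Given with ICT, tretinoin went with no such fall, since the combination stood at 0.29 ± 0.16 relative to ICT, which did not pass (adjusted p = 0.326). The difference between these tretinoin effects, tested as an interaction on all 39 tumours, was 1.15 ± 0.25 (adjusted p = 0.0231). Tnfaip6 was the only one of the 10 to pass, where 0.0401% of 14977 genes were higher and 0.267% lower. In all 4 pairs of tumour series the tretinoin tumours were lower than the PBS tumours in mean log2 CPM, by 0.68 to 1.19.

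**Figure D3:**
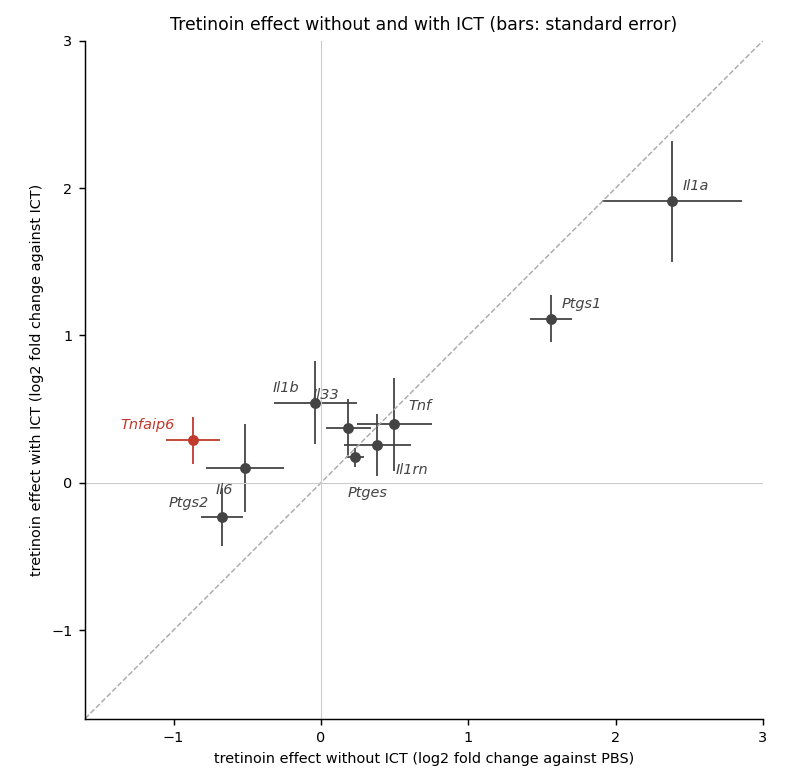
Effect of tretinoin without ICT (x axis, log2 fold change against PBS) and with ICT (y axis, log2 fold change against ICT) for the 10 genes, with standard errors as bars and the line of equal effects dashed. Tnfaip6, in red, is the 1 gene whose interaction passed, and Il1a and Ptgs1 lie far to the right and above 0 on both axes.

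Ptgs1, the constitutive cyclooxygenase, was the most uniform response to tretinoin among the 10. It ranged from 13.9 to 22.2 CPM with PBS (median 16.9), from 35.4 to 89.7 with tretinoin (48.9), from 15.7 to 28.6 with ICT (23.1) and from 27.7 to 63.3 with both (50.2). All 9 tretinoin and all 10 combination tumours lay above all PBS tumours, and all 9 tretinoin tumours lay above all ICT tumours. The rise over PBS was 1.56 ± 0.14, or 2.95-fold, with tretinoin (adjusted p = 2.16e-07) and 1.45 ± 0.14, or 2.73-fold, with both (2.71e-07). The combination exceeded ICT by 1.11 ± 0.16 (adjusted p = 0.000322), ICT alone was lower than tretinoin by -1.23 ± 0.16 (adjusted p = 2.85e-05), and the combination stood at -0.11 ± 0.18 relative to tretinoin. ICT alone stood at 0.33 ± 0.12, just short of the threshold (adjusted p = 0.0633), and passed without any one of 5 tumours. The lower tretinoin effect with ICT than without was not called (interaction -0.45 ± 0.22, unadjusted p = 0.0468, adjusted p = 0.519).

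Ptgs2, the inducible cyclooxygenase, went the other way with tretinoin. It ranged from 22.8 to 45.0 CPM with PBS (median 29.2), from 14.7 to 29.0 with tretinoin (18.9), from 23.7 to 48.8 with ICT (32.1) and from 16.2 to 49.7 with both (28.1). All 9 tretinoin tumours lay below the PBS median, 7 of them below every PBS tumour, while the combination tumours spread over both ranges. The fall with tretinoin was -0.67 ± 0.14 (adjusted p = 0.00288). Ptgs2 was higher with ICT than with tretinoin by 0.82 ± 0.15 (adjusted p = 0.00138), and with both than with tretinoin by 0.60 ± 0.20 (adjusted p = 0.0407). That last call was lost without any one of 12 of the 19 tumours. Against PBS, neither ICT (0.16 ± 0.14) nor the combination (-0.07 ± 0.19) passed.

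The ratio of Ptgs2 to Ptgs1 reads, from CPM with 0.5 added and not corrected for length, changed side between groups, and is given as a description. Ptgs2 reads exceeded Ptgs1 reads in all 10 PBS tumours and 9 of 10 ICT tumours, at median ratios of 1.69 and 1.56. Ptgs1 exceeded Ptgs2 in all 9 tretinoin tumours, at a median of 2.66 to 1, and in 8 of 10 combination tumours, at 1.72 to 1. The 2 exceptions in the combination were non-responders.

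**Figure D4:**
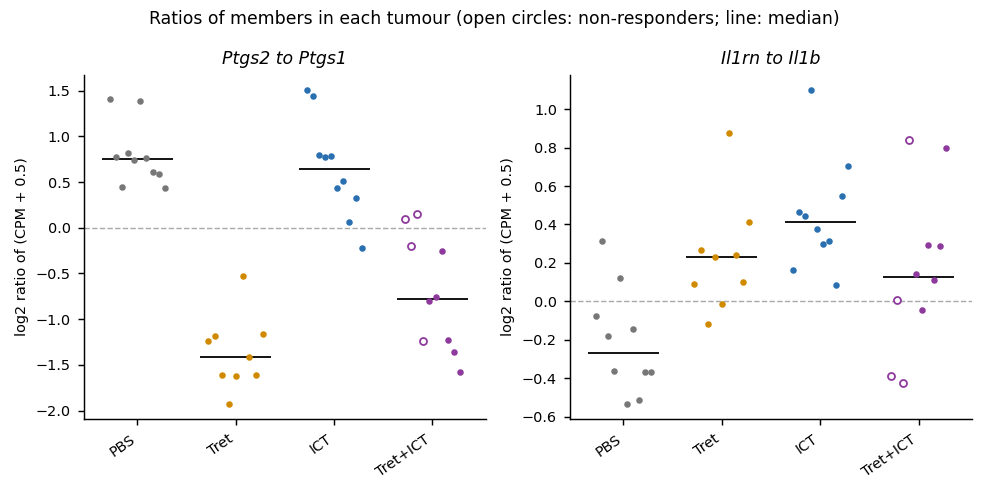
Log2 ratios of CPM with 0.5 added in every tumour, by treatment, for Ptgs2 to Ptgs1 (left) and Il1rn to Il1b (right), with the median as a line and non-responders of the combination as open circles. All 9 tretinoin tumours lie below 0 on the left, and all 10 ICT tumours lie above 0 on the right.

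Ptges, the inducible prostaglandin E synthase, changed little in size and had the narrowest range of the 10, from 41.4 to 66.6 CPM over all 39 tumours. Its medians were 47.4 CPM with PBS, 52.7 with tretinoin, 50.5 with ICT and 57.8 with both. In 9 of 10 combination tumours it was above every PBS tumour. The rise was 0.23 ± 0.06, or 1.17-fold, with tretinoin (adjusted p = 0.0105) and 0.31 ± 0.05, or 1.24-fold, with both (0.000117). ICT alone stood at 0.12 ± 0.06 (adjusted p = 0.114).

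Several macrophage markers were also higher in treated than in PBS tumours. The summed CPM of the 7 found ranged from 2019 to 3070 with PBS, from 2202 to 4471 with tretinoin, from 2167 to 4655 with ICT and from 2933 to 4278 with both. Of the 7 markers, 4 were higher with tretinoin, 7 with ICT and 7 with both than with PBS. Of all genes, 11.5%, 14.1% and 25.7% were higher than with PBS in these groups, and 8.95%, 7.15% and 24.5% lower. Between the combination and ICT 0 of the 7 passed, where only 1.57% of all genes were higher and 0.422% lower. With both, 5 of the 7 were higher than with tretinoin, where 12.3% of all genes were. Of the 6 neutrophil markers found, of 8, 5 were higher with ICT and 5 with both than with PBS, and 5 with both than with tretinoin, at list medians of 1.19, 1.36 and 1.61. Their summed CPM, most of it from Mmp9, which is also an osteoclast marker, had medians of 340.2 with PBS, 248 with tretinoin, 469.7 with ICT and 389 with both. Of 5 monocyte markers tested 2 rose with tretinoin, 4 with ICT and 4 with both, where 1 fell, and 1 was higher with both than with ICT. Of 5 osteoclast-like markers tested 3 fell with tretinoin, 4 fell with both, and 1 was lower with both than with ICT. Their summed CPM ranged from 382 to 1635 with PBS, 236 to 789 with tretinoin, 383 to 1532 with ICT and 271 to 703 with both. The part of these cell types in the results was not tested. Without PBS replicate 4, Tretinoin replicate 3 and ICT replicate 3, a choice made after their values were seen, the numbers of the 10 genes that passed against PBS were 5, 5 and 9, as with all tumours. The combination then differed from tretinoin in 7 and ICT from tretinoin in 5 of the 10, with Il1a and Il1rn added. Calls over all genes rose as well, from 3074 to 4474 and from 1365 to 1736 in these 2 comparisons.

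Between responders and non-responders of the combination Ptgs1 did not overlap, yet no gene passed. Ptgs1 was 27.7, 28.4, 42.2 and 43.8 CPM in the 4 non-responders and between 49.3 and 63.3 in the 6 responders (median 58.0). The difference was 0.67 ± 0.14 (unadjusted p = 0.000477, adjusted p = 0.0841). Il1a was 3.85, 4.02, 4.17 and 5.98 CPM in non-responders and between 5.21 and 10.8 in responders (median 8.55), a difference of 0.86 ± 0.24 (adjusted p = 0.0907). For Il1a 4 of 6 responders were above all non-responders. For Il33 5 of 6 were, at 0.56 ± 0.26 (adjusted p = 0.226), and for Il1rn 4 of 6, at 0.41 ± 0.16 (adjusted p = 0.154). Il6 (0.98 ± 0.43) and Tnf (0.67 ± 0.30) were nominally higher too, while Il1b, Tnfaip6, Ptgs2 and Ptges lay between 0.00 and 0.10.

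The absence of calls depended on the test and on 1 tumour. At an unadjusted p below 0.05 there were 3302 of all genes and 5 of the 10. DESeq2 called 1367 genes, among them Il1a (0.85, adjusted p = 0.0129) and Ptgs1 (0.66, adjusted p = 0.00160). Without responder replicate 5 edgeR called 1805 genes, among them Il1a, Il1rn, Il33 and Ptgs1. With all combination tumours it had called 0 of 14604 genes tested. The name series were unevenly divided, with 3 non-responders and 2 responders whose names start with 2 and 1 non-responder and 4 responders whose names start with 4. Within both series Ptgs1, Il1a and Il1rn were higher in every responder than in every non-responder, by 0.85 and 0.34 in mean log2 CPM for Ptgs1 and by 0.85 and 0.96 for Il1a. With so few tumours per series, and 1 non-responder in series 4, such an order arises easily. How many of all genes did not overlap, within the series or over both together, was not counted. With the series as a block Ptgs1 stood at 0.63 (adjusted p = 0.121). The summed macrophage markers did not overlap either, at 2933 to 3469 CPM in non-responders and 3654 to 4278 in responders, and their part in these differences was not tested.

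Other genes of eicosanoid metabolism were counted by list, to be read against the shares of all genes, which were 11.5% higher and 8.95% lower with tretinoin, 14.1% and 7.15% with ICT, and 25.7% and 24.5% with both. Of the list of arachidonic acid release and prostanoid synthesis, 2 genes rose, 1 fell and 9 did not pass with tretinoin, 1 rose and 10 did not pass with ICT, and 6 rose, 1 fell and 6 did not pass with both. The counts with a single treatment were near those shares. Tbxas1, the thromboxane A synthase, had a median of 25.7 CPM with PBS, 87.3 with tretinoin, 61.4 with ICT and 91.2 with both. It rose by 1.61 ± 0.22 with tretinoin, 1.26 ± 0.26 with ICT and 1.87 ± 0.24 with both (adjusted p = 4.56e-05, 0.00421 and 5.60e-06). Pla2g5, a secreted phospholipase, was higher in the combination than in ICT by 1.18 ± 0.30 (adjusted p = 0.0389) at a median of 1.16 CPM.

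Hpgd, which encodes the dehydrogenase that inactivates prostaglandin E, was the 1 of 4 genes tested for prostaglandin breakdown and transport that passed with tretinoin. Its change was -1.72 ± 0.25 (adjusted p = 5.53e-05), from a median of 2.22 CPM with PBS to 0.703. It was 2.91 CPM with ICT and 1.78 with both, higher with both than with tretinoin by 1.39 ± 0.24 (adjusted p = 0.00111) and lower than with ICT by -0.77 ± 0.15 (adjusted p = 0.00538). The interaction for Hpgd was 0.94 ± 0.29 and did not pass (adjusted p = 0.202).

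Of the 6 prostanoid receptor genes tested, 1 rose and 1 fell with tretinoin, 2 rose with ICT and 3 rose with both. Ptger2, a prostaglandin E receptor, rose by 0.999 ± 0.25, 1.22 ± 0.27 and 1.65 ± 0.23 (adjusted p = 0.00916, 0.00506 and 1.02e-05). Ptgfr, the prostaglandin F receptor, fell with tretinoin (-0.58 ± 0.16, adjusted p = 0.0133) and rose with ICT by 0.31 ± 0.11 (adjusted p = 0.0476). Among 5 leukotriene genes tested, tretinoin raised 1, ICT 2 and both 3, and the combination lowered 1. Ltc4s, the leukotriene C synthase, rose with tretinoin by 1.45 ± 0.23 (adjusted p = 0.000147), from a median of 1.99 to 5.20 CPM, and was lower with both than with tretinoin by -0.95 ± 0.27 (adjusted p = 0.0194). Alox5ap, which presents arachidonic acid to 5-lipoxygenase, rose with ICT by 0.55 ± 0.11 (adjusted p = 0.00393) and with both by 0.73 ± 0.09 (3.07e-06).

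**Figure D5:**
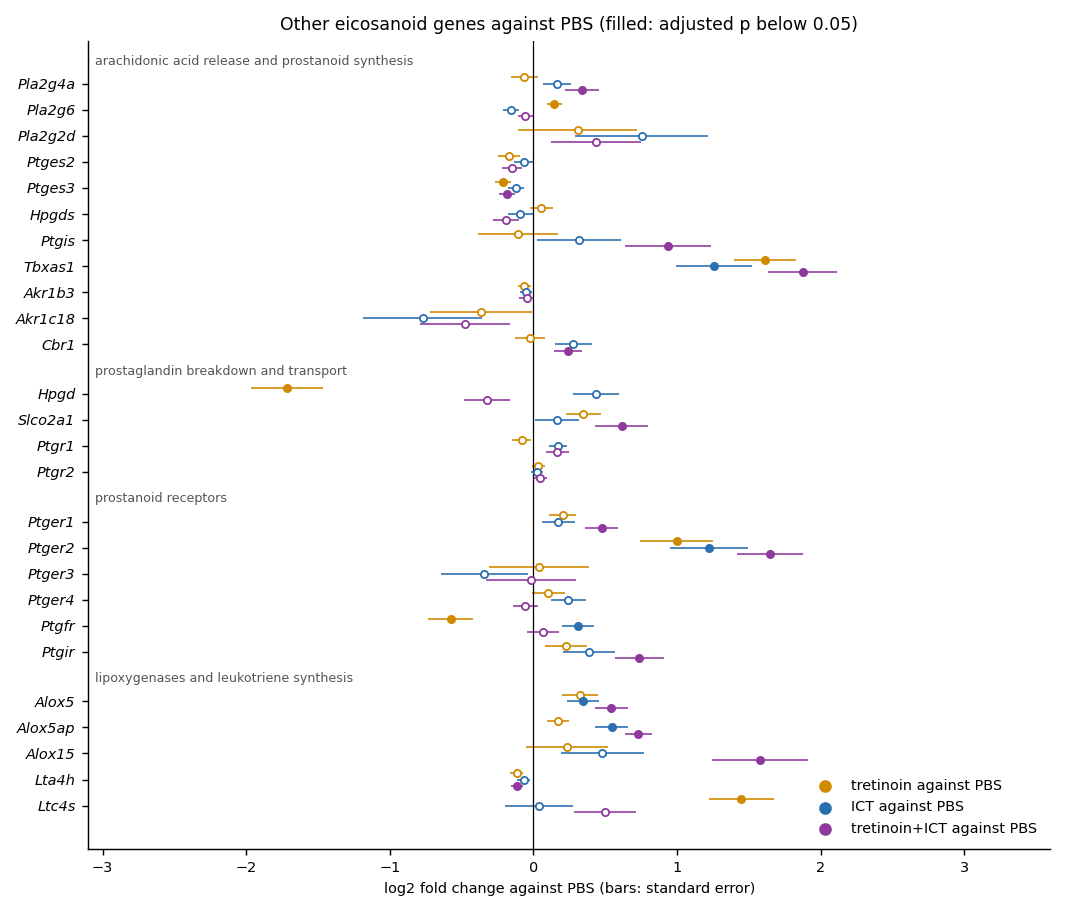
Log2 fold changes against PBS, with standard errors as bars, of the other eicosanoid genes tested in all 3 comparisons with PBS, grouped by list, with filled points where the adjusted p was below 0.05. Hpgd lies at -1.72 with tretinoin, and Tbxas1 and Ptger2 lie above 0 in all 3 comparisons.

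The ligands, receptors and signalling partners of the cytokines were counted in the same way, against the same shares of all genes. Of 11 other IL-1 family ligands and receptors tested, 1 rose and 2 fell with tretinoin, 8 rose with ICT, and 8 rose and 1 fell with both. Between ICT and tretinoin 5 of the 11 were higher with ICT, where 4.13% of all genes were. Il1f9, the gene of IL-36 gamma, rose by 1.85 ± 0.33 with ICT (adjusted p = 0.00150) and 2.36 ± 0.29 with both (2.51e-06). Il1rl1, the ST2 gene, rose by 1.07 ± 0.18 with ICT (adjusted p = 0.00108) and 1.21 ± 0.12 with both (3.05e-07). Il1rap, the shared accessory chain of the IL-1 and IL-33 receptors, fell with tretinoin (-0.35 ± 0.05, adjusted p = 1.98e-05). Il1r2, a decoy receptor for IL-1, was higher when ICT was added to tretinoin by 1.62 ± 0.17 (adjusted p = 1.97e-05).

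Of 5 inflammasome genes tested, 0 passed with tretinoin and 3 rose with ICT and with both. Pycard, the adaptor that joins the sensors to caspase-1, rose by 0.91 ± 0.18 with ICT (adjusted p = 0.00333) and 1.42 ± 0.18 with both (3.73e-06). Of 16 NF-kB subunits and feedback inhibitors, 4 rose with tretinoin, 11 with ICT and 14 with both, and 0 fell. Between ICT and tretinoin 1 of the 16 passed, and it was higher with ICT. Irak2, a kinase of the IL-1 receptor pathway, rose with tretinoin by 0.92 ± 0.11 (adjusted p = 2.92e-06) and with both by 1.39 ± 0.12 (5.64e-08), and Bcl3, a nuclear cofactor of NF-kB, exceeded ICT in the combination by 1.004 ± 0.16 (adjusted p = 0.00104). Of 13 TNF and IL-6 family ligands and receptors, 4 rose with tretinoin, 6 with ICT and 9 with both, where 1 also fell. Between ICT and tretinoin 1 was higher and 2 lower with ICT. Tnfrsf1b, the second TNF receptor, rose by 0.92 ± 0.07 with tretinoin (adjusted p = 3.03e-08) and 0.86 ± 0.07 with both (2.67e-08), and Osm, an IL-6 family cytokine, was higher when ICT was added to tretinoin by 1.60 ± 0.25 (adjusted p = 0.000438).

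Of 7 hyaluronan matrix genes tested as partners of TSG-6, 1 rose and 1 fell with tretinoin, 3 rose and 1 fell with ICT, and 3 rose and 2 fell with both. With tretinoin this is close to the 11.5% and 8.95% of all genes. Ptx3, a pentraxin built into the same matrix, followed Tnfaip6, at 1.002 ± 0.29 with ICT (adjusted p = 0.0203), 1.53 ± 0.25 with both (6.55e-05) and -0.49 ± 0.30 with tretinoin, which did not pass (adjusted p = 0.253). Has2, a hyaluronan synthase, fell with tretinoin (-0.87 ± 0.15, adjusted p = 0.000394), from a median of 3.20 to 1.81 CPM. Unlike Tnfaip6, Has2 also fell with ICT (-0.40 ± 0.13, adjusted p = 0.0298) and with both (-0.47 ± 0.16, adjusted p = 0.0161). Bmp2 rose with tretinoin, where Tnfaip6 fell, by 0.91 ± 0.11 (adjusted p = 4.37e-06). It also rose with ICT by 0.45 ± 0.13 (adjusted p = 0.0181) and with both by 1.13 ± 0.11 (2.66e-07). None of the listed genes passed between responders and non-responders or for the interaction.

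Within groups, the genes that varied most like the members differed from one member to the next. The measure was Spearman's rho of log2 CPM minus the group mean over the 39 tumours, among 10671 genes with a mean of at least 5 CPM, and it is given as a description of libraries that share treatment, depth and cell mixture. Tnf went with Fcgr1 (0.93) and H2-T22 (0.93). Il1a went with Bcl2a1d (0.82), Bcl2a1a (0.82) and Cmtm6 (0.80), and Il1b with Rab20 (0.87), Neurl3 (0.86) and Bcl2a1d (0.85), of which Bcl2a1a and Bcl2a1d are near-identical paralogs whose reads may be shared. Il1rn went with Arid5a (0.92), Clic4 (0.91) and Pim1 (0.90), Il33 with Serpina3n (0.90), Ackr3 (0.89) and Cadm3 (0.88), and Il6 with Dhrs9 (0.70), Azin2 (0.69) and Ccl7 (0.68). Tnfaip6 went with Crispld2 (0.74), Ugt1a6a (0.69) and Serpinb1a (0.67). Ptgs1 went with Hfe (0.83), Egln3 (0.82) and Ap1b1 (0.81), Ptgs2 with Ppp1r15b (0.78), Pla2g4a (0.77) and Lat2 (0.77), and Ptges with Arpc5 (0.76), Ldha (0.74) and Rnd1 (0.72). Pla2g4a, the cytosolic phospholipase that frees arachidonic acid for the cyclooxygenases, was the 1 gene of these pathway lists to appear among them. Fcgr1, which went with Tnf, is among the macrophage markers summed above.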

How the data were processed

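RNA-seq of 39 AB1-HA tumours was analysed. The authors sequenced single-end reads on a NovaSeq instrument, made FASTQ files with bcl2fastq (version 2.20.0.422 in the submitters' processing notes), aligned them with HISAT2 (2.0.4) to a genome they name mm11, counted reads per gene with SummariseOverlaps and deposited raw counts, without normalization. Strand mode and multimapped reads are not given in the sources used here. The table holds 39676 genes, and 36719 of its identifiers match GENCODE M21 with their version. Total counts ran from 14033046 to 37951183 per tumour.

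For each comparison edgeR 4.0.16 (R 4.3.3) was run on the tumours compared, with TMM normalization, filterByExpr and the robust quasi-likelihood test, and p-values were adjusted by the Benjamini-Hochberg method over all genes tested. The interaction was fitted on all 39 tumours. A standard error is the absolute log2 fold change over the square root of F. CPM values use TMM factors over all tumours, and log2 CPM a prior count of 2. Sums of markers are CPM. The procedure was tested on simulated data. The members and lists were chosen with earlier results of these data known. Named genes are all 10 members, the up to 2 list genes per direction with the smallest adjusted p in each comparison, and the 3 genes most like each member, of which 1 is not reported here. Other list genes are named where a value is compared. Alternatives were DESeq2 1.42.0, DESeq2's size factors, other low-count filters, all tumours in 1 fit, a 2-fold minimum, the name series as a block, and tumours left out. In the alternative with all tumours in 1 fit, responders and non-responders were separate groups, given equal weight in comparisons of the combination. Replicate numbers follow the order of deposit and pair no tumours. P-values measure only the spread between these tumours. The labels and the paper differ in the number of tretinoin doses, and the labels were followed. Python 3.11.15 made the summaries. Listed genes that were not found were not analysed here.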

Additional observations from a re-analysis of the deposited data

Results flagged for a closer look

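Of 60 sets of values checked (10 genes in 4 treatments and the 2 response groups), 12 had a tumour far from the others by Dixon's test. For normally distributed values it flags about 1 set in 20 by chance. The test was run on CPM, not on log values, and whether that rate holds for them was not checked. PBS replicate 4 stood high for Tnf (19.6 CPM, the next tumour 10.8), Il1a (1.75), Il1b (53.7) and Il1rn (41.7). Tretinoin replicate 3 stood high for Il1a (14.6 CPM, the next 3.47), Il1b (70.7), Il1rn (65.3) and Ptgs1 (89.7). ICT replicate 3 stood high for Il1a (5.81 CPM). Tretinoin replicate 4 stood high for Tnfaip6 (7.59 CPM). Among the 4 non-responders, replicate 3 stood high for Il1a (5.98 CPM) and replicate 4 low for Il1b (23.4 CPM, the next 61.1). These sets share tumours and the genes vary together, so they are not 12 independent events.

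The effect of tretinoin on Tnfaip6 differed with and without ICT, by an interaction of 1.15 on the log2 scale (edgeR, adjusted p = 0.0231).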

How the results depend on the processing

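The numbers of genes that passed were within 1.5 times the reported ones under every alternative but these. A 2-fold minimum gave 2 for tretinoin and 2 for ICT against PBS. At least 10 counts in every tumour gave 1 of 9 tested for the combination against ICT, since Il1a was then not tested. DESeq2 gave 2 between responders and non-responders. Leaving out each tumour in turn gave 5 to 5 for tretinoin and 4 to 6 for ICT against PBS, 2 to 2 for the combination against ICT, 5 to 7 against tretinoin and 0 to 4 for responders. For responders, calls over all genes ran from 0 to 1805 in those fits. No paired analysis was possible because replicate numbers follow the order of deposit. Leaving tumours out, other than between responders and non-responders, was added after the data were seen.

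Directions that turned were all of values without a call, and the cause was not tested. With all 39 tumours Il6 was -0.0655 between the combination and ICT. Without the 3 tumours that stood apart Ptgs1 was 0.0237 between the combination and tretinoin, and the interactions of Tnf, Il1a and Il1rn were 0.136, 0.378 and 0.124. Between responders and non-responders Ptgs2, at 0.00, became -0.00906 with DESeq2, -0.00608 with its size factors, -0.0301 without a filter and -0.00123 with all tumours. Leaving out single tumours there gave -0.20 to 0.28 for Ptgs2, -0.15 to 0.23 for Il1b, -0.11 to 0.18 for Tnfaip6 and -0.000401 to 0.0941 for Ptges. Between treatments, leaving out single tumours gave -0.37 to 0.12 for Il1b with tretinoin against PBS. It gave -0.15 to 0.19 for Il6 between the combination and ICT, and -0.17 to 0.02 for Ptgs1 between the combination and tretinoin. The lowest expressed genes, Il1a and Il6, carry the largest counting error.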
